A study of Mus musculus with 78 samples.

Results

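The distal regions bound by HA-EZH1 at 20 and 24 h after synchronization were examined in C2C12 cells, mouse myoblasts that can fuse to form myotubes. Per the paper's methods, C2C12 cells were differentiated first and synchronized as myotubes. All peaks of the 18 HA-EZH1 lists on chromosomes 1 to 19 were merged where they overlapped, which gave 61196 regions. A region was kept when a peak of all 3 lists at 24 h and of all 3 lists at 20 h lay in it, and 1136 regions met this. Of these, 856 lay more than 3 kb from every transcription start site (TSS) of the annotation and are the distal regions, and the other 280 are called TSS-near regions. The members were thus chosen by their peaks in these 6 lists, and their presence there and the height of their peaks are given as a description only. The libraries came from C3H/C2C12 cells labelled as skeletal muscle and collected at 12, 16, 20, 24, 28 and 32 h after a serum shock, with 3 biological replicates at each time. HA-EZH1 is an HA-tagged form of EZH1α, and the labels name neither the antibody nor the line that carried it. The paper describes a line with Ezh1 knocked down and doxycycline-induced HA-EZH1α, and also stable lines with FLAG- and HA-tagged EZH1α. It does not say which of these lines was profiled here. Bio-EZH1, a biotinylated EZH1α captured with streptavidin from cells with Ezh1 knocked down, SUZ12 from the same line, and H3K27me3 from wild-type cells were profiled at the same 6 times, with 3 lists each. For Bio-EZH1 and SUZ12 the line is that of the paper's methods, whereas its figure legend names wild-type cells for all 3 of these profiles. Every group used here shared the serum shock.

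EZH1 and EZH2 are the alternative catalytic subunits of Polycomb repressive complex 2 (PRC2), which methylates lysine 27 of histone H3. SUZ12 is a core subunit without which the complex is unstable, and H3K27me3 is the product of the reaction and the mark of Polycomb-repressed chromatin. EZH1 prevails in non-dividing tissue such as muscle, where it has also been found at sites of active transcription. Regions far from a TSS include enhancers, which are bound by transcription factors such as AP-1 and RUNX proteins and act on promoters over long distances.

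The sequence around the strongest summit is shown for 5 regions, to set the highest peak beside regions with a motif match. The first is the region with the highest HA-EZH1 fold, in an intron of Tpd52. The next are regions in an intron of Kcnh8 and 38295 bp from the TSS of Vldlr, both among the 10 highest, and the strongest of the regions whose nearest protein-coding gene was Col5a2 or Inhba. Each window is 200 bp of GRCm38, on the plus strand. Capitals mark matches to TGANTCA (searched for AP-1, with any base at N), TGTGGT (RUNX) or CAGCTG (the E-box preferred by MYOD), on either strand.
Tpd52, chr3:8971765-8971964: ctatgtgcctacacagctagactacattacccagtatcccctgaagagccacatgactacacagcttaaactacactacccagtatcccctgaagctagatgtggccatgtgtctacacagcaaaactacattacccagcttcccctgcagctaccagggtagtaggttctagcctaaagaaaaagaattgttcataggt
Kcnh8, chr17:52810816-52811015: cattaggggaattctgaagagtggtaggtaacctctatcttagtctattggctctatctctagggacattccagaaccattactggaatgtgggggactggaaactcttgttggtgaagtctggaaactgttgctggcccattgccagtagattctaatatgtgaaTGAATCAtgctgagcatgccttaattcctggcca
Vldlr, chr19:27176579-27176778: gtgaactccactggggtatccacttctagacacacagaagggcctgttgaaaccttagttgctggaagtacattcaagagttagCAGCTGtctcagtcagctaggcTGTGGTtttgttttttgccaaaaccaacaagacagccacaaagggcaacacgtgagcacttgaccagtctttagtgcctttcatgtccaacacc
Col5a2, chr1:45626069-45626268: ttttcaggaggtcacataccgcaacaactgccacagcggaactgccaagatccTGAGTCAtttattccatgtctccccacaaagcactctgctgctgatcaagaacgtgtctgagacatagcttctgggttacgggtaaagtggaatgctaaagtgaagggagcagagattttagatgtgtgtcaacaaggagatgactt
Inhba, chr13:16176227-16176426: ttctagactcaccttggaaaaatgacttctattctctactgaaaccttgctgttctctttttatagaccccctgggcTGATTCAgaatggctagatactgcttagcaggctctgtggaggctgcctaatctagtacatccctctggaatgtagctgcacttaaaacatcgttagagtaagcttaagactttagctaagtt
The Tpd52 window held none of these 3 motifs, and a stretch of 19 bases occurred in it at positions 28 and 77, counted from its left end.

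The lists give no read depth, so errors below are the spread between the 3 libraries of a time. The HA-EZH1 lists held 2347 to 16366 peaks and covered 0.0527% to 0.422% of the autosomes. A HA-EZH1 peak had a median length of 448 to 515 bp, whereas the distal regions had a median length of 2184 bp (520 to 15877 bp) and 8 peaks, since overlapping peaks of different libraries were chained. All 6 lists covered at least 1 common base in 561 of the 856 distal regions and in 209 of the 280 TSS-near regions. The strongest summit, that is the summit of the highest peak among the 6 lists, lay in a peak of all 6 lists in 304 distal regions. A further 844 distal regions had a peak in 5 of the 6 lists and fell just outside the rule.

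The distal regions lay in introns and between genes in shares close to those of the autosomes. The strongest summit was in an intron in 393 regions (45.9%, 95% Wilson interval 42.6% to 49.3%), between genes in 448 (52.3%) and in an exon in 15 (1.75%). Introns made up 42.2% of the autosomal sequence, intergenic sequence 52.8% and exons 4.96%. Of the 47904 merged HA-EZH1 regions more than 3 kb from a TSS, 48.2% had their summit in an intron. The intron share was 36.6% when protein-coding genes alone were counted. Median folds were 3.56 in introns, 3.55 between genes and 3.48 in exons, and the largest fold of the 3 places was 9.64 in an intron.

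Most of the distal regions were far from any promoter. The nearest TSS of any transcript was at a median distance of 20277 bp (quartiles 10269 and 45417 bp), 644 regions lay more than 10 kb from every TSS, and 45 lay more than 100 kb away. The nearest protein-coding TSS was at a median of 48439 bp. The members nearest to the limit were 3086 bp (chr9:88275783-88278104, fold 3.31), 3101 bp (chr8:105430741-105434311, fold 2.95) and 3112 bp (chr4:3929932-3935270, fold 4.48) from a TSS. Regions just inside the limit, and therefore left out, were at 2997 bp (chr8:49491642-49493904, fold 3.59), 2996 bp (chr4:81926291-81929378, fold 3.62) and 2947 bp (chr6:4487145-4491098, fold 4.65). Folds in this comparison are geometric means over the 6 libraries.

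Distal regions were not spread evenly over the chromosomes. Chromosome 15 held 183 of them (21.4%) with 4.22% of the autosomal length, which is 17.6 regions per 10 Mb. Chromosome 8 followed with 6.34 and chromosome 10 with 5.28 per 10 Mb, while chromosome 7 had 2 regions, or 0.138 per 10 Mb. Of the TSS-near regions, 26 (9.29%) were on chromosome 15 and 10 (3.57%) on chromosome 7. All 61196 merged HA-EZH1 regions were uneven as well, with 16.1% on chromosome 15 and 1.72% on chromosome 7, which has 5.91% of the autosomal length. On chromosome 15 the densest interval of 5 Mb was 60 to 65 Mb, with 32 distal regions, and on chromosome 8 the intervals 80 to 85 and 85 to 90 Mb held 28 and 25. Among all regions, 374 (43.7%) lay within 100 kb of another distal region.

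The share of peaks on chromosome 15 varied with time in the HA-EZH1 lists themselves. The mean over the 3 lists was 6.14% ± 0.102 at 12 h (SD). By 16 h it was 12.5% ± 1.11, and the lists of 20 h had 16.6% ± 0.563. The highest mean, 20.0% ± 0.171, belonged to 24 h, and later lists had 8.65% ± 0.482 (28 h) and 8.49% ± 0.713 (32 h). The 3 lists at each of 20 and 24 h stood above the lists of every other time. In the Bio-EZH1 lists the share stayed between 4.86% and 5.54%, and in the H3K27me3 lists between 4.24% and 5.78%. SUZ12 lists ranged between 5.35% and 11.8%, with the highest mean, 11.5% ± 0.351, at 16 h. The copy number of chromosome 15 in these cells and its part in the result were not tested.

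**Figure D1:**
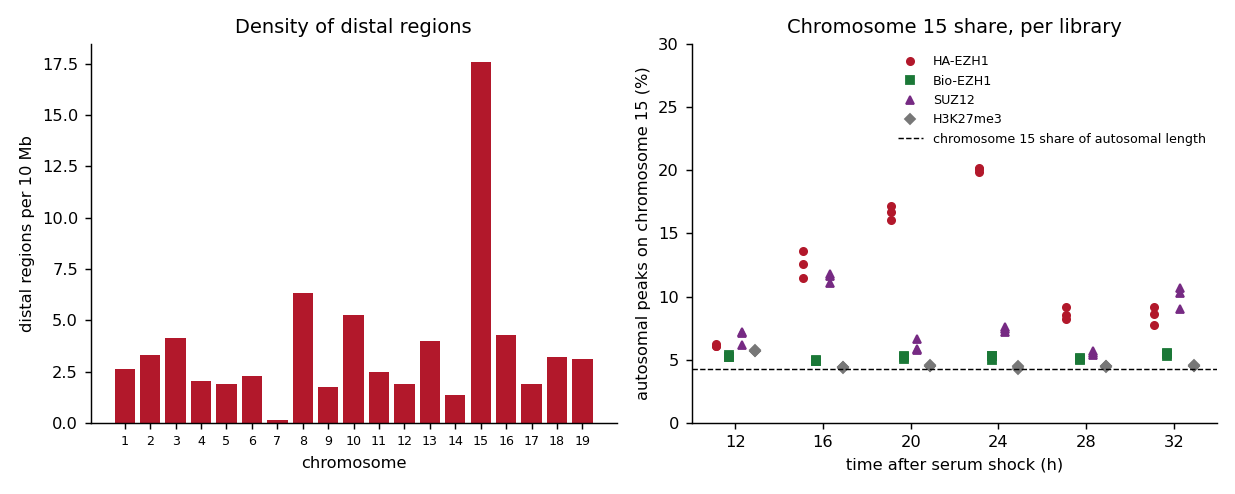
Left, distal HA-EZH1 regions per 10 Mb on each autosome, as bars. Right, percent of the autosomal peaks of each library that lie on chromosome 15, against the time after serum shock in h, 1 point per library for the 4 profiles, with a dashed line at the share of chromosome 15 in autosomal length; chromosome 15 stood at 17.6 regions per 10 Mb, and its share of HA-EZH1 peaks averaged 20.0% at 24 h and 6.14% at 12 h.

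Outside the times of the rule, distal regions were bound most often at 16 h. Of the 856 regions, 350 (40.9%) had no HA-EZH1 peak outside the 6 lists of the rule. A peak was present in 8.76% ± 0.818 of them in the 12 h libraries and in 32.1% ± 0.410 in those of 16 h (SD, n = 3 libraries each). After the times of the rule it was present in 6.89% ± 1.04 (28 h) and 14.1% ± 2.96 (32 h). The 16 h libraries, at 31.7% to 32.5%, stood above all other libraries outside the rule, whose highest value was 17.3% at 32 h. TSS-near regions had a peak more often at the same times, in 31.4% ± 3.44 (12 h), 46.7% ± 1.35 (16 h), 28.3% ± 1.35 (28 h) and 37.0% ± 2.32 (32 h) of them. In windows of the same lengths 20 kb to either side of the distal regions the share was 1.03% (12 h), 3.68% (16 h), 0.837% (28 h) and 1.71% (32 h). The lists also differed in size, with a mean of 11767 ± 3998 peaks in those of 20 h and 13411 ± 1395 in those of 24 h, and means between 2491 and 5007 at the 4 other times, and the part of this in the shares was not tested. With chromosome 15 left out, the shares of distal regions were 9.26% (12 h), 32.0% (16 h), 7.88% (28 h) and 14.7% (32 h).

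**Figure D2:**
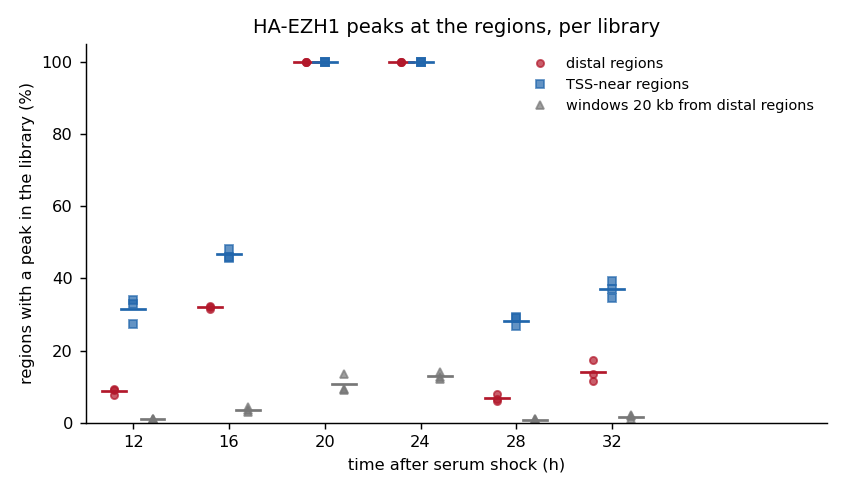
Percent of regions with a HA-EZH1 peak in each library, against the time after serum shock in h, for the 856 distal regions, the 280 TSS-near regions and the neighbouring windows; points are libraries and lines are means of 3. The values at 20 and 24 h are 100% by the rule, and of the other times 16 h had the highest share at distal regions, 32.1%.

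The fold is the ratio of the signal at a peak to the background that MACS2 models, and where a library had several peaks in a region the highest was taken. Distal regions had a median fold of 3.37 to 3.44 in the libraries of 24 h and 3.68 to 3.83 in those of 20 h. All peaks of these libraries had median folds of 2.91 to 3.07 at 24 h and 3.02 to 3.28 at 20 h. The geometric mean over the 6 libraries had a median of 3.56 in distal regions (2.42 to 9.64) and 3.57 in TSS-near regions (1.67 to 13.2). The fold was 5 or more in all 6 lists in 2 distal regions (0.234%) and in 8 TSS-near regions (2.86%). These 2 were the regions of highest fold described next.

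The region of highest fold lay in an intron of Tpd52, which codes for a small coiled-coil protein overexpressed in tumours, at chr3:8971607-8972126. Its folds were 8.93, 9.36 and 7.76 at 24 h, against 12.9, 9.08 and 10.6 at 20 h. It had a peak in all 18 HA-EZH1 lists, with folds between 4.84 and 9.78 at the other times, and in none of the 54 lists of Bio-EZH1, SUZ12 and H3K27me3. The region was thus not particular to 20 and 24 h.

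The second highest lay in an intron of Map4, a microtubule-binding protein, at chr9:109952979-109954271. Its folds were 6.48, 6.58 and 5.52 at 24 h, against 11.6, 6.52 and 8.63 at 20 h. It was present in 15 HA-EZH1 lists, absent in those of 28 h, and present in no list of the other profiles. In its 200 bp window 76.0% of the bases were soft-masked as repeats, and a stretch of 40 bases was found again 6 bases further on. The part of repeats in these 2 peaks was not tested. The third was in an intron of Kcnh8, a voltage-gated potassium channel, at chr17:52810240-52811360, with folds of 8.02, 4.44 and 6.15 at 24 h, against 8.11, 9.03 and 7.25 at 20 h.

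The other 7 of the 10 highest had geometric mean folds between 5.19 and 5.39. They lay in an intron of Abhd3, a phospholipase (chr18:10686065-10693605), in an intron of AC118724.1 nearest to Vldlr, the very low density lipoprotein receptor (chr19:27176244-27178189), and in an intron of Rnf150, a RING finger protein (chr8:82870440-82871896). The remaining 4 were intergenic and were nearest to Asap1, an ARF GTPase-activating protein (chr15:64470156-64475703), Cdh18, a cadherin (chr15:23504842-23507627), Ext1, a heparan sulfate polymerase (chr15:52927634-52930124), and Nfe2l3, a basic leucine zipper factor (chr6:51178932-51188795). The Rnf150 region had folds of 5.59, 3.74 and 5.28 at 24 h, against 5.26, 6.35 and 5.28 at 20 h, and these overlapped. The Abhd3 and Nfe2l3 regions were covered by all 18 lists of each of Bio-EZH1, SUZ12 and H3K27me3, and the Vldlr region by 16 SUZ12 and 18 H3K27me3 lists but by no Bio-EZH1 list. The Rnf150, Tpd52, Map4 and Kcnh8 regions were covered by none of the 54 lists.

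Besides the Tpd52 and Nfe2l3 regions, 2 more had a peak in all 18 HA-EZH1 lists. They were in an intron of Gata4, a zinc finger factor of heart and endoderm (chr14:63261699-63267026), and near Ltc4s, leukotriene C4 synthase (chr11:50252023-50253144). The Ltc4s region had folds of 3.78, 3.46 and 3.96 at 24 h, against 4.57, 3.89 and 4.19 at 20 h, and reached 7.81, 7.13 and 8.45 at 28 h, above all of its other libraries. An intergenic region near Bdh1, a mitochondrial ketone body dehydrogenase (chr16:31385757-31394100), was present in 17 lists, and 88.8% of its bases were soft-masked.

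Only a small part of the distal regions was also bound by Bio-EZH1. A Bio-EZH1 peak was present in 9.35% ± 0.309 of them in the libraries of 24 h and 8.29% ± 0.117 in those of 20 h, and between 7.13% and 9.58% over all 18 libraries (SD, n = 3 libraries each). In the TSS-near regions the shares were 10.1% ± 0.899 at 24 h and 8.57% ± 0.619 at 20 h, and in the neighbouring windows 3.68% ± 0.202 at 24 h and 2.71% ± 0.135 at 20 h. Every Bio-EZH1 library thus covered a larger share of distal regions than of their neighbouring windows, where the highest share was 3.91%. Of the 856 regions, 736 (86.0%) had no peak in any Bio-EZH1 list, 63 had one in 1 to 17 lists, and 57 (6.66%) had one in all 18.

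SUZ12 peaks were present in 14.7% ± 0.701 of the distal regions at 24 h, against 7.44% ± 0.771 of the neighbouring windows, and in 11.6% ± 0.912 at 20 h, against 4.40% ± 0.818. The share was highest at 16 h, 27.5% ± 2.01, where the 3 libraries stood at 25.2% to 29.0% and those of all other times at or below 18.6%. The next highest was 17.6% ± 1.20 at 32 h. At 16 h the regions on chromosome 15 were covered in 42.3% ± 3.51 and those on the other autosomes in 23.5% ± 1.67, and at 20 h in 7.83% ± 1.38 and 12.6% ± 0.845. TSS-near regions were also covered most often at 16 h, in 24.2% ± 2.30. No test between times was made, since 16 h was singled out after its values had been seen.

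H3K27me3 peaks were present in 12.6% ± 0.294 of the distal regions at 24 h, against 9.72% ± 0.527 of the neighbouring windows, and in 12.0% ± 0.234 at 20 h, against 8.57% ± 0.389. Its highest share was 17.4% ± 1.05 at 12 h, when 14.6% ± 0.389 of the neighbouring windows had one as well. The H3K27me3 lists held broad peaks with q-values up to 0.09999, a looser limit than the 0.05 of the other profiles. No list of the 3 other profiles held a peak in 433 distal regions (50.6%) and in 155 TSS-near regions (55.4%).

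**Figure D3:**
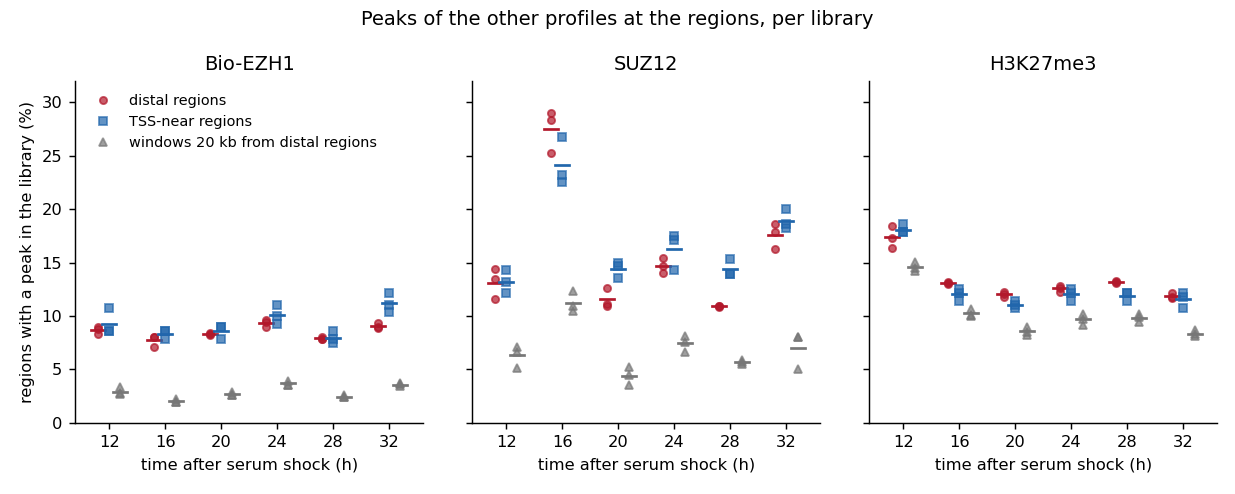
Percent of regions with a Bio-EZH1, SUZ12 or H3K27me3 peak in each library, against the time after serum shock in h, for distal regions, TSS-near regions and neighbouring windows; points are libraries and lines are means of 3. Distal regions stood above their neighbouring windows at every time in the means of each profile, by the largest margin for SUZ12 at 16 h (27.5% and 11.2%).

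The 57 distal regions with a peak in all 18 Bio-EZH1 lists were covered by the other profiles as well. SUZ12 was present in all 18 of its lists in all 57, and H3K27me3 in 56 of them. They had a HA-EZH1 peak in a median of 13 lists and in 12 or more lists in 34 (59.6%), against a median of 7 lists and 18 regions (4.16%) for the 433 regions without another profile. Their median length was 3855 bp, against 1980 bp. Their summit windows held 2.93 CpG dinucleotides on average, against 1.63. AP-1 motifs were found in 3 of the 57 windows (5.26%) and in 69 of the 433 (15.9%), and RUNX motifs in 4 (7.02%) and 97 (22.4%). The remaining 366 regions, covered by some lists of the other profiles, had AP-1 motifs in 65 (17.8%) and RUNX motifs in 87 (23.8%). These groups were set after the values had been seen and were not tested.

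Among the 57, the regions of highest fold after Abhd3 and Nfe2l3 lay in an exon and an intron beside Gnao1, the alpha subunit of the G protein Go (chr8:93790849-93805776 and chr8:93769309-93785185), and in an intron of Inpp4b, a phosphoinositide phosphatase (chr8:81518532-81523356). Gnao1 was the nearest protein-coding gene of 4 of the 57 regions. The larger Gnao1 region, 15877 bp long, had folds of 4.96, 4.44 and 4.73 at 24 h, against 5.73, 5.11 and 5.53 at 20 h. Every fold at 24 h was below every fold at 20 h here, before any centring, as in 172 of the 856 distal regions. The library medians of distal regions were lower at 24 h too, at 3.37 to 3.44 against 3.68 to 3.83 at 20 h. This Gnao1 region was not among the 19 distal regions called between these times, as described below. In that test 2.38% of all regions were called lower. Genes of the lists described below that were nearest to one of the 57 were Igf1r, the receptor of insulin-like growth factor 1 (chr7:67925516-67930992, fold 4.56), Atf3, a stress-induced AP-1-type factor (chr1:191206879-191212876, 3.77), Hoxb1 (chr11:96374119-96377178, 3.57) and Hoxc13 (chr15:102898617-102905766, 3.46). Both Hox regions were thus in this group.

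Motifs were searched on both strands in the 200 bp around the strongest summit, and beside it in windows of 200 bp centred 1 kb to either side. AP-1 sites, counted as TGANTCA with any base at N, were in 137 of the 856 summit windows (16.0%, 95% Wilson interval 13.7% to 18.6%), against 6.07% and 6.66% of the flanks. TSS-near regions had 8.57% (5.83% to 12.4%), and all 61196 merged HA-EZH1 regions 8.09%. Matches with A or T at N, as those marked at Kcnh8 and Inhba, were not counted apart from those with C or G. RUNX sites (TGTGGT) were in 22.0% (19.3% to 24.9%), against 14.7% and 14.1% of the flanks, with 21.8% in TSS-near regions and 15.5% in all merged regions. The E-box CAGCTG, which MYOD and other muscle factors bind, was in 11.7% (9.70% to 14.0%), against 7.36% and 6.78% of the flanks, with 13.6% in TSS-near and 10.1% in all merged regions. TEAD sites (GGAATG) were in 16.5% (14.1% to 19.1%), against 12.1% and 12.4% of the flanks, with 13.6% and 12.3% in the 2 other sets. Counting intervals of the summit and the flanks did not overlap for AP-1, RUNX and CAGCTG, and overlapped for TEAD.

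For the other motifs the intervals of summits and flanks overlapped. The general E-box CANNTG, which includes CAGCTG and CACGTG, was in 67.5% of summit windows, against 62.6% and 65.1% of the flanks, and in 62.9% of TSS-near and 66.2% of all merged regions. CACGTG, the E-box of CLOCK and BMAL1, was in 13 windows (1.52%), against 1.40% and 1.87%, and in 3.93% of TSS-near and 2.12% of all merged regions. TTATGTAA, the D-box of the clock, was in 10 windows (1.17%), against 1.40% in each flank, and in 0.357% and 0.887%. AGGTCA, a hexamer bound by nuclear receptors, was in 10.7%, against 11.7% and 11.9%, and in 12.5% and 11.8%. GATAAG was in 6.66%, against 9.23% and 6.78%, and in 7.14% and 6.63%, and the GA repeat GAGAGAG in 6.19%, against 5.96% and 6.66%, and in 7.5% and 6.35%. A match is a stretch of letters and not a measured site.

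Among the 561 regions where the 6 lists shared a base, AP-1 sites were in 16.6% and RUNX sites in 22.6%. Ranked by fold, AP-1 sites were in 12.6% of the lowest 286 regions, 18.2% of the middle 285 and 17.2% of the highest 285, and the counting intervals of these shares overlapped. On chromosome 15 the AP-1 share was 17.5%, and on the other autosomes 15.6%. The summits were also richer in G and C than their flanks, with means of 43.6% against 40.5% in each flank, and fewer of their bases were soft-masked as repeats, 15.6% against 26.7% and 26.4%. Over the autosomes 41.9% of bases were G or C and 33.5% were soft-masked. The part of base composition in the motif shares was not tested.

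**Figure D4:**
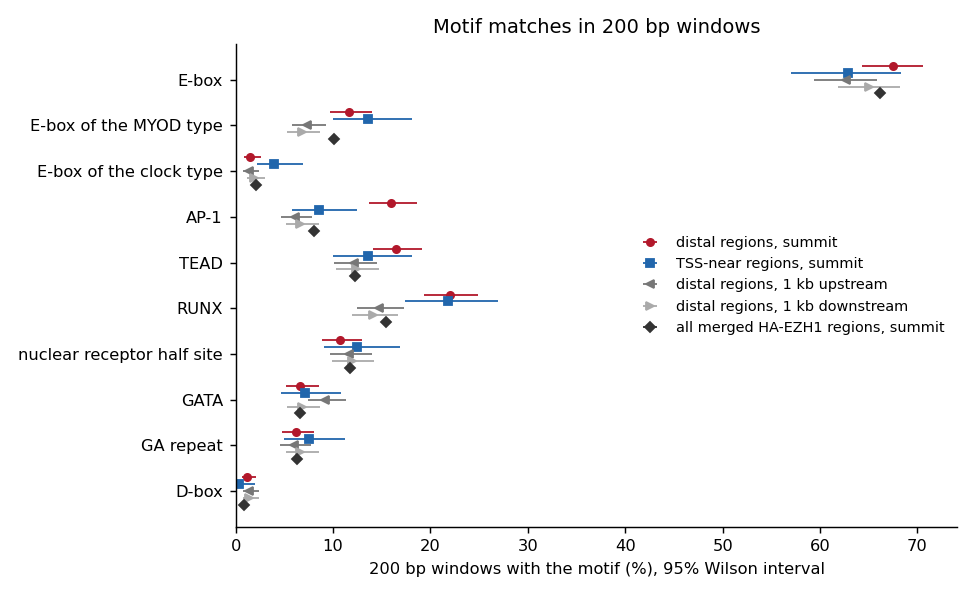
Percent of 200 bp windows with each of 10 motifs, at the strongest summit of distal regions, of TSS-near regions and of all merged HA-EZH1 regions, and 1 kb to either side of distal summits; bars are 95% Wilson intervals, which cover counting error only. AP-1 stood at 16.0% at distal summits and at 6.07% and 6.66% in the flanks.

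The 856 regions had 579 nearest protein-coding genes, 2.79% of 20780 autosomal ones, and 435 of these genes had a single region. In 273 of the 393 intronic regions the nearest protein-coding gene was the host. Myc, a growth-regulating transcription factor, was nearest to 12 regions on chromosome 15, at 10340 to 709643 bp from its TSS. Their folds ranged between 3.05 and 4.37, 3 of them lay in introns of the noncoding gene Pvt1, and the strongest (chr15:62657420-62660150) was in an intron of Gm41333. None of them was covered by more than 1 Bio-EZH1 list or more than 4 SUZ12 lists. Asap1 followed with 9 regions, and Ext1, Rnf150, Cpq (a carboxypeptidase), Lifr (the receptor of leukemia inhibitory factor), Phkb (a phosphorylase kinase subunit), Il15 (interleukin 15) and Abcc12 (a transporter) with 7 each.

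All 7 regions of Rnf150 lay in its own introns, between chr8:82870440 and 82985163. Gnao1, A1bg, Has2 (hyaluronan synthase), Thbs1 (thrombospondin 1), Angpt1 (angiopoietin 1) and Ccdc80 (an extracellular matrix protein) had 6 regions each, Cited2 (a transcriptional coregulator) and Inhba 5 each, and Ghr (the growth hormone receptor), Inpp4b and Mbnl1 (a splicing regulator) 4 each. Of these 20 genes, 9 are on chromosome 15 and 6 on chromosome 8. A gene in a wide gene-poor interval has more sequence nearest to it, so these counts are not corrected for size.

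Of the gene lists, extracellular matrix genes were most often nearest to a distal region. They were so for 12 of 29 genes matched (41.4%), with 20 regions, beside 2.79% of all protein-coding genes. The shares of this and the other lists are likewise not corrected for the size of the interval around each gene. Several matrix genes were nearest at long range only, as Col12a1 at 396010 bp. Thbs1 had 6 regions with folds up to 4.57 (chr2:117729097-117733814), at 110964 to 378062 bp from its TSS. Dcn (decorin) had 3, at 32209 to 68872 bp. Fn1 (fibronectin) had 2, at 160498 and 254978 bp, and Col5a2 (a chain of type V collagen) had 1 at 121729 bp, with fold 3.74. Col3a1, Col6a3, Col8a1, Col12a1, Col1a2, Lama2, Tnc and Postn had 1 each, and none of the 20 regions was covered by more than 1 Bio-EZH1 list.

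Adhesion and actin genes were nearest to a region for 8 of 35 (22.9%), with 10 regions. Cdh2 (N-cadherin) and Lpp (a focal adhesion protein) had 2 regions each in their own introns, and Ptk2 (focal adhesion kinase) 1 at 23226 bp, in its own intron, with fold 3.91. Acta2 (smooth muscle actin) had 1 region at 9073 bp with fold 3.70. Serum response and AP-1 genes were nearest for 4 of 19 (21.1%), with 18 regions, namely Myc with 12, Klf6 with 4 (5890 to 327536 bp, fold up to 3.89), Atf3 with 1 and Klf4 with 1. Genes of the TGF-beta, BMP and myostatin list were nearest for 3 of 22 (13.6%), which were Inhba, an activin subunit, with 5 regions at 160301 to 723786 bp, Tgfb2 with 3 and Bmp4 with 1.

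Few genes of the muscle lists were nearest to a distal region, though in shares no lower than the 2.79% of all protein-coding genes. Of 18 myogenic regulators, 2 were (11.1%), Myf6 at 3476 bp (chr10:107498213-107500649, fold 3.35) and Runx1 at 125480 bp (chr16:92951629-92953606, fold 2.87). Of 33 sarcomere and creatine kinase genes, Neb (nebulin) alone was (3.03%), through a region in its own intron (chr2:52319652-52322490, fold 3.49). Igf1r was 1 of 20 insulin, IGF and glucose genes (5.0%), and Hoxb1 and Hoxc13 were 2 of 39 Hox genes (5.13%). No distal region had one of the 20 core clock genes, the 15 Notch pathway genes or the 22 matched PRC1 and PRC2 genes as its nearest protein-coding gene. At 2.79%, the share of all protein-coding genes, each of these 3 lists would hold less than 1 such gene, so nothing is read from the counts of 0. Enhancers that RefSeq annotates on these chromosomes (866 intervals) overlapped 3 distal regions (0.350%), 4 TSS-near regions (1.43%) and 142 of all merged regions (0.232%). The 3 distal regions were nearest to Fggy, Has2 and Gsdmc.

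The fold of each region was compared between 24 h and 20 h, a contrast that the rule did not use, since it required peaks at both times. Log2 folds were set relative to the median of each library and tested with limma over the 1136 regions, with p-values adjusted over all of them by the Benjamini-Hochberg method. Before this the median region was lower at 24 h, by a difference of -0.14 in log2. Among distal regions 7 were higher at 24 h (0.818%) and 12 lower (1.40%) at an adjusted p under 0.05, whereas over all regions tested 12 were higher (1.06%) and 27 lower (2.38%). The differences of distal regions had a median of 0.01 in log2 (quartiles -0.17 and 0.18), and the median SD between replicates was 0.21. Of the 19 called, 9 were in introns and 10 between genes, and 2 were on chromosome 15.

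The largest rise at 24 h was in an intron of Syne1, a nuclear envelope spectrin-repeat protein (chr10:5109925-5111866). Its folds were 3.81, 4.06 and 5.29 at 24 h, against 2.21, 2.62 and 2.13 at 20 h. The centred difference was 1.06 ± 0.19 in log2 (SE, limma, adjusted p = 0.00204). A region in an intron of Arsj, an arylsulfatase (chr3:126383813-126385681), had folds of 4.93, 4.47 and 5.85 at 24 h, against 3.46, 3.01 and 2.69 at 20 h, a difference of 0.89 ± 0.18 (adjusted p = 0.00663). Regions nearest to Gm10772 (chr13:66294945-66296089), Col12a1, a collagen (chr9:79214225-79216960), and Sfrp2, a secreted WNT inhibitor (chr3:83450606-83453029), rose by 0.77, 0.73 and 0.73 in log2 (limma, adjusted p between 0.0304 and 0.0475). In each of these 5 the 3 uncentred folds at 24 h stood above the 3 at 20 h, as in 24 of the 856 distal regions. The Syne1 call held under every alternative in which the region was fitted, and the Arsj call was lost only without 20 h replicate 3 (limma, adjusted p = 0.0569). The calls at Gm10772, Col12a1 and Sfrp2 were all lost without centring (limma, adjusted p = 0.0605, 0.0825 and 0.0991), and those at Col12a1 and Sfrp2 also with the replicate number as a block (0.0565 and 0.0727). Leaving out single libraries ended them as well, namely 20 h replicate 1 or 3 or 24 h replicate 2 or 3 for Gm10772 (adjusted p up to 0.141), any library but 24 h replicate 3 for Col12a1 (up to 0.154), and replicate 1 or 3 of either time for Sfrp2 (up to 0.225).

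The largest fall was at an intergenic region nearest to Brinp3, a neuronal protein (chr1:145955079-145958957), with folds of 4.84, 1.83 and 3.69 at 24 h, against 7.0, 8.19 and 8.12 at 20 h. The centred difference was -1.12 ± 0.25 in log2 (SE, limma, adjusted p = 0.0151). A region in an intron of Cadm1, an adhesion molecule (chr9:47624279-47626659), had folds of 2.13, 2.75 and 2.2 at 24 h, against 7.15, 4.85 and 5.01 at 20 h, a difference of -1.10 ± 0.19 (adjusted p = 0.00204). An intergenic region nearest to Ado, a thiol dioxygenase (chr10:67606842-67608599), had folds of 2.51, 2.07 and 2.29 at 24 h, against 5.54, 4.69 and 5.05 at 20 h, a difference of -1.0 ± 0.17 (adjusted p = 0.00199). Regions nearest to Ghr (chr15:3707243-3710828) and Ssbp2 (chr13:91359031-91361054) had differences of -0.84 and -0.79 in log2 (limma, adjusted p = 0.0198 and 0.0304). In these 5 every uncentred fold at 24 h was below every fold at 20 h, as it was in 172 of the 856 distal regions. The calls at Cadm1 and Ado held under every alternative in which these regions were fitted. Those at Brinp3 and Ghr were lost with the mean over the peaks of a region (limma, adjusted p = 0.0840 and 0.0713). Single libraries ended the call at Brinp3 (any of 20 h or 24 h replicate 2, adjusted p up to 0.0719), at Ghr (20 h replicate 1 or 3 or 24 h replicate 1 or 2, up to 0.113) and at Ssbp2 (any of 20 h or 24 h replicate 2 or 3, up to 0.146).

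Without centring on the library median, 2 distal regions were higher at 24 h and 31 lower, and over all regions 6 were higher and 57 lower. The number of distal calls fell whenever a library was left out, to 10, 6 and 9 without 24 h replicates 1, 2 and 3, and to 5, 12 and 4 without 20 h replicates 1, 2 and 3.

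**Figure D5:**
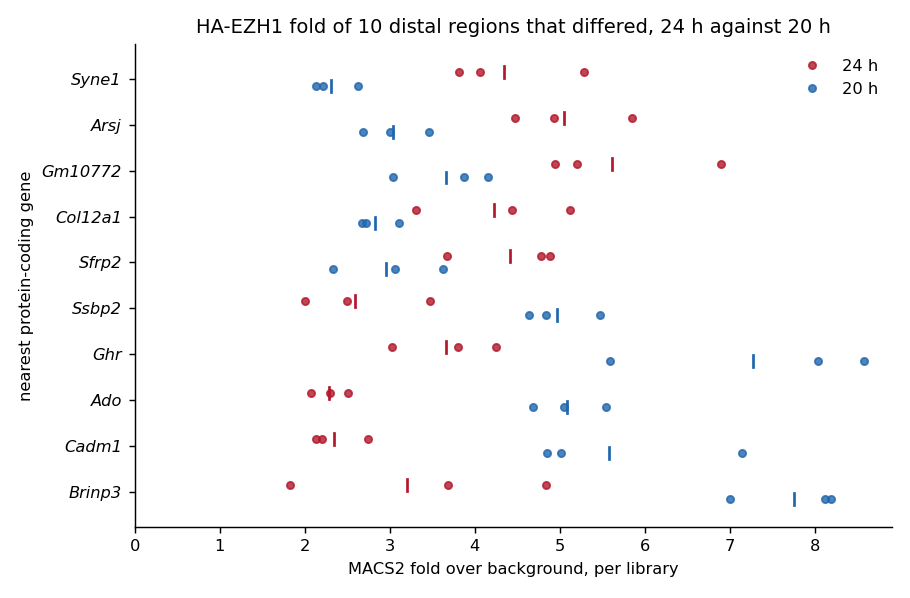
HA-EZH1 fold over background in each library for the 5 distal regions with the largest rise and the 5 with the largest fall at 24 h against 20 h, named by the nearest protein-coding gene; points are libraries and bars are geometric means of 3. The Syne1 region stood at 3.81 to 5.29 at 24 h and at 2.13 to 2.62 at 20 h, and the Ado region at 2.07 to 2.51 and at 4.69 to 5.54.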

How the data were processed

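ChIP-seq peak lists of 4 profiles, 6 times and 3 replicates (72 lists) were used, with groups taken from the sample labels. Per the study's methods and the submitters' processing notes, the authors used BBDuk for trimming and BWA 0.7.17 for alignment to mm10 and BDGP6, removed duplicates with Picard, kept proper pairs with SAMtools 1.7 and called peaks in each library with MACS2 2.2.4 at a q-value of 0.05. For Bio-EZH1 the study names cells with the biotin ligase BirA alone as the control. The filter applied to the lists afterwards, and the control given to MACS2 for the other profiles, are not given in the sources used here. The deposited fold is a ratio of signal to modelled background, p-values and q-values were deposited as −log10, and a deposited score, not used here, equals 10 times the −log10 q-value cut to a whole number in 120353 of 120365 HA-EZH1 peaks. H3K27me3 peaks are broad peaks, and the largest q-value in their lists was between 0.0964 and 0.09999. In the lists of the 3 other profiles every q-value was under 0.05. The 6 HA inputs were not used here. Depth is unknown, and intervals given for shares of regions cover counting error only. Longer merged regions meet other peaks more readily.

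Peaks were merged with Python 3.11.15 (pandas 2.3.3, pysam 0.24.0), an overlap being at least 1 bp. Genes and TSSs of all transcripts were those of GENCODE M21, and sequence was that of GRCm38 (RefSeq, patch 6), the assembly of mm10, and 0 peaks ended beyond their chromosome in it. A region was placed by its strongest summit. Differences in log2 fold were tested with limma 3.58.1 in R 4.3.3, which was tested on simulated data. The biological replicates are libraries, and p-values measure the spread between them. Same-numbered libraries of 24 h and 20 h did not deviate together (correlations -0.00974, 0.0120 and -0.00885), so the numbers were not taken as pairs.

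The members and gene lists were chosen with earlier results of these data known. Regions named are the 10 of highest fold, the 5 largest changes each way, the 5 in most HA-EZH1 and in most Bio-EZH1 lists, the 3 nearest to the 3 kb limit on each side, the 20 genes with most regions, and up to 4 genes per list, and others named were chosen after their values were seen.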

Additional observations from a re-analysis of the deposited data

How the results depend on the processing

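The number of distal regions was 304 when the strongest summit had to lie in a peak of all 6 lists and 561 when the 6 lists had to share a base, a condition chosen after the data had been seen, as were the subsets without chromosome 15. Without 1 of the 6 lists it was 932 to 1029, and other TSS distances, gene starts only and a q-value under 0.01 kept it within 1.5 times of 856. The intron share was 39.3% when any exon overlap counted as exon and 36.6% with protein-coding genes only. The mean share of regions with a Bio-EZH1 peak, 8.51%, was 6.46% when 50% of the region had to be covered, 9.72% with a peak in any library of the time and 9.21% without chromosome 15. For SUZ12, 15.9% became 9.92% with 50% covered and 21.2% with any library. For H3K27me3, 13.4% became 11.5% with 50% covered, 11.4% at q under 0.01, 14.6% with any library and 14.4% without chromosome 15. The excess of AP-1 sites at summits over flanks, 9.64 percentage points, was 4.91 in windows of 100 bp, and that of RUNX sites, 7.54, was 4.79. Shorter windows hold fewer matches by construction.

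Between 24 h and 20 h, 33 distal regions and 63 of all regions were called without centring. With the replicate number as a block, 11 distal regions and 27 of all regions were called, all 11 among the 19. Without 1 library, 4 to 12 distal regions and 13 to 25 of all regions were called. The cause of these changes was not tested, though fewer libraries leave fewer degrees of freedom. None of the 10 regions named for their change reversed under any of these alternatives. Over these alternatives their adjusted p stayed under 0.05 in 72 refits and did not in 34.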
